A study of Homo sapiens with 52 samples.

Results

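Ca2+-Sen day 8 was compared with Ca2+-Sen day 16: human lung fibroblasts collected 8 and 16 days after a pulse of potassium chloride. The genes were those whose mean normalized count, as the authors deposited it, was at least 10 in both the day 8 and the day 16 table, and 14425 of 59408 genes met this rule. Another 446 genes reached that mean only in the day 8 table and 105 only in the day 16 table. A normalized count is the number of reads of a gene divided by a size factor that puts the libraries on 1 scale, so it serves to compare a gene between libraries and not to compare genes with each other.

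All cells were WI-38, a normal line from embryonic lung that stops dividing after a limited time in culture, labelled wild type and grown in high-glucose medium with fetal bovine serum. For Ca2+-Sen, exposure to KCl at 75 mM lasted 24 h. Culture without added KCl followed a wash and went on until collection on day 8 or day 16. The Untreated cells were young cells that received no KCl, and the labels give them no day of collection. The series holds 52 libraries in 26 groups, with 2 libraries in each group, and the 6 libraries of these 3 groups were used for the tests. The study's methods call the libraries of a group independent samples, without saying whether these were separate cultures, so the p-values measure the spread between these libraries. The deposited tables hold 1 mean over 4 libraries for each gene, from which the whole counts of each library were solved. The 2 libraries of a group carry no number after this step and are called a and b, a being the larger.

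A rise of potassium outside a cell depolarises its plasma membrane, which opens voltage-gated calcium channels. Senescence is a lasting arrest of division in which fibroblasts keep up the cyclin-dependent kinase inhibitors p21 (CDKN1A) and p16 (CDKN2A), lose lamin B1 and secrete cytokines, proteases and matrix. In dividing cells E2F factors drive the genes of DNA replication, and the complex of MYBL2, FOXM1 and the MuvB proteins drives those of mitosis afterwards. In arrested cells the DREAM complex holds the mitotic genes down at a short promoter element, the cell cycle genes homology region (CHR).

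The libraries held 37089728 and 32193153 counted reads on day 8, 28642148 and 27412805 on day 16, and 18971753 and 15258997 in Untreated cells. Mitochondrially encoded genes took 4.16% and 4.17% of the reads on day 8, 3.90% and 4.00% on day 16, and 3.29% and 3.45% in Untreated cells. The median difference between the 2 libraries of a group was 0.08 on the log2 scale on day 8, 0.09 on day 16 and 0.14 in Untreated cells. No pair of libraries agreed within sampling noise.

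The libraries carried the markers of fibroblasts. All 8 fibroblast markers were among the genes tested, and their most abundant member was COL1A1, a chain of type I collagen, at 235632 and 231098 normalized counts on day 8, 203237 and 204869 on day 16 and 334973 and 262043 in Untreated cells. Of the other marker lists 1 of 5 epithelial genes, 1 of 4 endothelial genes, 1 of 5 leukocyte genes, 2 of 4 neuronal genes and 3 of 5 muscle genes reached a mean of 10 in both tables. KRT5, KRT14, CDH5 and CD3E had no read in any of the 6 libraries. The leukocyte list summed to 194 and 256 normalized counts on day 8, to 63.0 and 57.7 on day 16 and to 25.6 and 24.6 in Untreated cells. Nearly all of this was CD14, a receptor for bacterial lipid that also occurs outside leukocytes, at 194 and 250.5 normalized counts on day 8 and 63.0 and 52.2 on day 16. In RNA from a whole culture, fewer cells of a kind and less RNA in each cell cannot be told apart.

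Of the 14425 genes, 5200 (36.0%) differed between day 8 and day 16 at an adjusted p under 0.05 in limma's test on the solved counts with Benjamini-Hochberg adjustment. The level was higher on day 8 for 2432 genes (16.9%) and lower on day 8 for 2768 genes (19.2%). A log2 difference of at least 1, or a doubling, was reached by 297 of the former and 324 of the latter. Over all genes tested the median log2 difference was -0.01. Leaving out day 8 library b, day 16 library a or day 16 library b reduced the count of 5200 to 2920, 2899 or 3231. Both day 8 libraries lay above both day 16 libraries for 34.1% of the genes and below both for 37.4%. Against the Untreated cells, the fit called 6855 genes (47.5%) on day 8 and 3260 (22.6%) on day 16, and as these comparisons share the Untreated libraries their values are only set side by side. The day 8 libraries lay above the 4 other libraries for 25.3% of the genes and below all 4 for 27.9%. These shares were not worked out for day 16 or Untreated cells.

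**Figure D1:**
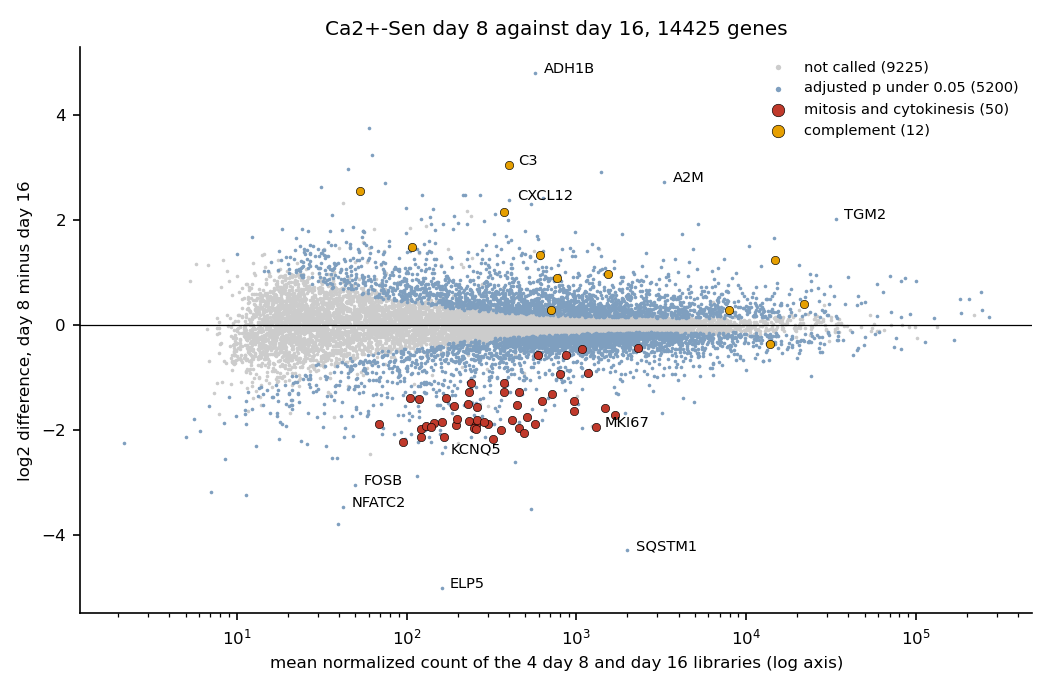
Each point is 1 of the 14425 genes, with the mean normalized count of the 4 day 8 and day 16 libraries on a log axis and the log2 difference (day 8 minus day 16) on the other. Grey genes were not called, blue genes were called at an adjusted p under 0.05, and the 50 mitotic genes (red) all lie below 0 while 10 of the 12 complement genes (orange) were called above it.

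The genes of cell division showed the most uniform difference: they were low on day 8 and higher on day 16, without reaching the Untreated level. All 50 tested genes of mitosis and cytokinesis were lower on day 8, with a median log2 difference of -1.77, where 19.2% of all genes were called lower. Of 40 genes of DNA replication, 34 were lower and none was higher, with a median of -0.76. In all 50 mitotic and 37 of 40 replication genes both day 16 libraries lay above both day 8 libraries and below both Untreated libraries, an order found in 15.9% of all genes.

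MKI67, the Ki-67 protein that coats mitotic chromosomes, stood at 618 and 462 normalized counts on day 8, 1909 and 2225 on day 16 and 4938 and 3855 in Untreated cells. The day 8 libraries were the lowest and the groups did not overlap (log2 difference -1.94 ± 0.16 (SE), adjusted p = 3.37e-05). CDC20, which activates the anaphase-promoting complex, stood at 215 and 168 normalized counts on day 8, 746 and 848 on day 16 and 1875 and 1696 in Untreated cells (log2 difference -2.05 ± 0.13 (SE), adjusted p = 1.12e-05). PLK1, the polo-like kinase of mitotic entry, stood at 159.6 and 128 normalized counts on day 8 and 572 and 578 on day 16 (log2 difference -1.99 ± 0.11 (SE), adjusted p = 5.99e-06). These 3 genes were thus 3.82-fold, 4.15-fold and 3.98-fold lower on day 8. The largest differences of the list belonged to NUF2, a kinetochore protein, at 38.3 and 28.8 normalized counts on day 8 and 156 and 159 on day 16 (log2 difference -2.22 ± 0.22 (SE), adjusted p = 0.000104), and to CEP55, which acts at the midbody in abscission, at 141 and 94.4 normalized counts on day 8 and 510.3 and 546 on day 16 (log2 difference -2.17 ± 0.15 (SE), adjusted p = 1.68e-05). GTSE1, a microtubule-binding protein of G2 and mitosis, and the kinesin KIF18B were, with CEP55, among the 12 largest falls of genes with a mean of at least 100 and no overlap between the days, at log2 differences of -2.14 ± 0.18 and -2.14 ± 0.20. The smallest difference in the list was that of BUB3, a checkpoint protein, at -0.43 ± 0.05. RNA of FOXM1 and MYBL2, named above, was low on day 8 as well, with log2 differences of -1.75 ± 0.10 and -1.80 ± 0.17. Whether this bears on the other genes was not tested.

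The promoters of the mitotic genes are shown because these genes moved together. RefSeq promoters (GRCh38.p14, the 200 bases from 150 before to 50 after the start of the gene) were found for 43 of the 50 genes. The CHR, searched as TTTGAA or TTCGAA on both strands, was present in 30 of the 43 (69.8%), in 6.14% of the 10336 tested genes with a promoter and in 10.3% of all 27305 promoters. The CCAAT box, searched as CCAAT on both strands, was present in 31 of the 43 (72.1%), in 28.9% of the tested genes and in 27.5% of all promoters. Both occurred in 22 of the 43 (51.2%) and in 2.23% of the tested genes. Not all mitotic genes that hold both are shown. The following 4 had large falls. They are given 5′ to 3′ in the direction of the gene, with the matches to either motif in capitals:
CEP55, chr10:93496462-93496661, plus strand: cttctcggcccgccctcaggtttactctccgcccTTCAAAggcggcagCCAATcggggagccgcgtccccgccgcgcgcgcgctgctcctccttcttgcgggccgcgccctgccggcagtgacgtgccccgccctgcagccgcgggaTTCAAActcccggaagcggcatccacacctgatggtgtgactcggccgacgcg
KIF18B, chr17:44947724-44947923, minus strand: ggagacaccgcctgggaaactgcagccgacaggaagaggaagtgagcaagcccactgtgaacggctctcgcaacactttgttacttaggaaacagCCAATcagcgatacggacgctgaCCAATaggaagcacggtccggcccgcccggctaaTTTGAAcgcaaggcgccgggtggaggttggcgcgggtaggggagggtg
KIF14, chr1:200620702-200620901, minus strand: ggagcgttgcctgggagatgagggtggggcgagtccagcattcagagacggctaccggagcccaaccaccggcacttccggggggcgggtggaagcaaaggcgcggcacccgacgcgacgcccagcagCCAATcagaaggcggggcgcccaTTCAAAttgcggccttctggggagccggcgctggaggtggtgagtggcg
CDC20, chr1:43358831-43359030, plus strand: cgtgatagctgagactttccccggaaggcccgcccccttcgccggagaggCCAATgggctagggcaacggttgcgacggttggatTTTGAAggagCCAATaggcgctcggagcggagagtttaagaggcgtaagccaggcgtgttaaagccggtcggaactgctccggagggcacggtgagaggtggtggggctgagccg
In CDC20 the CHR begins 65 bases before the start, with CCAAT boxes 100 and 55 bases before it. In CEP55 CHR matches begin 116 and 3 bases before the start. In KIF18B and KIF14 the CHR match begins at bases 3 and 2 of the gene, the start being base 1. A match says only that these letters are present in the window.

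Among the replication genes, RRM2 and TK1, which supply deoxynucleotides, had the largest differences. RRM2 stood at 500.3 and 381 normalized counts on day 8, 1723 and 1702 on day 16 and 3658 and 3295 in Untreated cells (log2 difference -1.96 ± 0.11 (SE), adjusted p = 5.71e-06). TK1 stood at 293 and 262 normalized counts on day 8, 996 and 954 on day 16 and 2148 and 2059 in Untreated cells (log2 difference -1.81 ± 0.08 (SE), adjusted p = 2.86e-06). In both, day 8 was lowest and Untreated highest, with no overlap. The licensing factors ORC1, CDC6 and CDT1 had log2 differences of -1.74 ± 0.24, -1.73 ± 0.13 and -1.09 ± 0.12, larger than those of the helicase subunits MCM2 to MCM7, which lay between -0.94 for MCM5 and -0.37 for MCM6. PCNA, the sliding clamp that also serves DNA repair, was lower by a smaller step (log2 difference -0.17 ± 0.06 (SE), adjusted p = 0.0411). POLA2, PRIM1, PRIM2, POLA1, RPA2 and RPA3 did not pass the test, with differences from -0.58 to -0.04.

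E2F sites were searched in the same promoters as TTTGGCGC, TTTCGCGC or TTTCCCGC on both strands. They were present in 19 of the 34 replication genes with a promoter (55.9%), in 3.30% of the tested genes with a promoter and in 1 of the 43 mitotic genes. No CHR match was present in the 34 replication promoters. Not all replication genes with an E2F match are shown. CDC6 and DTL, an adaptor of a ubiquitin ligase that removes CDT1, are replication genes with large falls and an E2F match, in capitals:
CDC6, chr17:40287729-40287928, plus strand: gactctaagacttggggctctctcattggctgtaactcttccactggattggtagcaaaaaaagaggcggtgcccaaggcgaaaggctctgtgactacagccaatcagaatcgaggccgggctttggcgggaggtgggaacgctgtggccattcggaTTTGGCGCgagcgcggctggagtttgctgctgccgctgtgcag
DTL, chr1:212035598-212035797, plus strand: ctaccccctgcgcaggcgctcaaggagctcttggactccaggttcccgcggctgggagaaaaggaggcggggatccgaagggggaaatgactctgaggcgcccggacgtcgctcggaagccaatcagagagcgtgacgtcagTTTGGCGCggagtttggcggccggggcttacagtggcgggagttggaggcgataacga
CDC6 stood at 141 and 114 normalized counts on day 8 and 438 and 412 on day 16 (log2 difference -1.73 ± 0.13 (SE), adjusted p = 2.62e-05). DTL stood at 96.2 and 80.8 normalized counts on day 8 and 296 and 271 on day 16 (log2 difference -1.67 ± 0.17 (SE), adjusted p = 0.000128), without overlap in either.

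Genes that control entry into the cycle were mostly lower or not called. Of 23 CDK inhibitors, G1 cyclins and E2F or pocket proteins, 13 were lower on day 8 and 3 higher (19.2% and 16.9% of all genes). E2F7, a repressor that is itself an E2F target, stood at 259 and 291 normalized counts on day 8, 762 and 894 on day 16 and 1019 and 961 in Untreated cells (log2 difference -1.59 ± 0.11 (SE), adjusted p = 1.34e-05), so that day 8 lay far below the other groups. E2F8 stood at 12.5 and 4.00 normalized counts on day 8 and 24.8 and 30.2 on day 16 (log2 difference -1.85 ± 0.53 (SE), adjusted p = 0.0240), and reached the mean of 10 in the day 8 table only through its Untreated level. E2F1, an activator, stood at 161 and 156 normalized counts on day 8 and 307 and 329.8 on day 16 (adjusted p = 0.000117), and cyclin D1 (CCND1) differed by -0.45 ± 0.05. The 3 higher genes were RBL2, the p130 pocket protein of the DREAM complex, with 0.53 ± 0.05, CDKN1B (p27) with 0.22 ± 0.07 and CDKN1A with 0.18 ± 0.05, and only 1 of the 3 was called without any 1 of the 4 libraries or with library totals as the scaling. RBL2 stood at 1439.6 and 1448 normalized counts on day 8, 1007 and 986 on day 16 and 964 and 1018 in Untreated cells, highest on day 8.

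Of the markers of senescence, RNA of the genes CDKN1A and CDKN2A was near the same level on both days, while that of lamin B1 was not. CDKN1A stood at 36203 and 35702 normalized counts on day 8, 32704 and 30809 on day 16 and 20968 and 22594 in Untreated cells. Day 8 was above day 16 by only 1.13-fold (log2 difference 0.18 ± 0.05 (SE), adjusted p = 0.0256), and both days were above Untreated, by 0.72 ± 0.05 on the log2 scale on day 8 and 0.54 ± 0.05 on day 16. The small step between the days did not pass the test with library totals as the scaling, nor without any 1 of the 4 libraries. CDKN2A stood at 766 and 752 normalized counts on day 8, 807 and 763 on day 16 and 600.2 and 597 in Untreated cells and did not pass the test between the days (log2 difference -0.05 ± 0.06 (SE), adjusted p = 0.581). CDKN2B (p15) did not pass it either, at 433 and 427 normalized counts on day 8 and 459.7 and 500.1 on day 16 (log2 difference -0.16 ± 0.09 (SE), adjusted p = 0.229). LMNB1 stood at 196 and 160.1 normalized counts on day 8, 524 and 513 on day 16 and 1366 and 1157 in Untreated cells, and thus had 2.90-fold less RNA on day 8 than on day 16 (log2 difference -1.54 ± 0.13 (SE), adjusted p = 4.81e-05).

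The other lamina and chromatin genes went the same way in part. Of 16 genes of the nuclear lamina and of HMG proteins, 13 were lower on day 8, none was higher (19.2% and 16.9% of all genes), and the median difference was -0.38. HMGB2, a chromatin protein of dividing cells, stood at 587 and 524 normalized counts on day 8, 861 and 872 on day 16 and 1857 and 1595 in Untreated cells (log2 difference -0.64 ± 0.09 (SE), adjusted p = 0.000719). HMGA1 and HMGA2, architectural proteins, had log2 differences of -0.96 ± 0.06 and -0.95 ± 0.05, and LMNA, which encodes the A-type lamins, of -0.51 ± 0.05. Of 34 replication-dependent histone genes, 16 reached the mean of 10, of which 4 were called higher on day 8 and none lower, where 16.9% of all genes were called higher. The count was 1 without day 8 library a or day 16 library b, and 2 without day 8 library b or day 16 library a, with a mean of 100 or with a log2 trend in place of voom. H2BC5 stood at 357 and 343 normalized counts on day 8, 229.8 and 221 on day 16 and 172 and 156 in Untreated cells (log2 difference 0.63 ± 0.09 (SE), adjusted p = 0.000891). Histone messages of this class mostly lack a poly(A) tail, and how messages were selected from the total RNA is not given in the sources used here.

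Several genes of growth arrest and of the stress response were higher on day 8. BTG2, TP53INP1, PLK3, AEN and GDF15 were chosen by rule, while SESN1, BBC3 and XPC were named after their values were seen. BTG2, an antiproliferative factor, stood at 1486 and 1586 normalized counts on day 8, 816 and 784 on day 16 and 747 and 584 in Untreated cells (log2 difference 0.94 ± 0.08 (SE), adjusted p = 5.25e-05). TP53INP1 stood at 2603 and 2660.2 normalized counts on day 8, 1535 and 1559 on day 16 and 845 and 906 in Untreated cells (log2 difference 0.77 ± 0.05 (SE), adjusted p = 1.30e-05). Both were highest on day 8 without overlap. SESN1, a stress-induced inhibitor of mTORC1, BBC3, a pro-apoptotic BCL2 relative, and XPC, a DNA repair factor, differed by 0.68 ± 0.08, 0.62 ± 0.11 and 0.57 ± 0.07. PLK3, a stress-induced kinase, and AEN, a nuclease of apoptosis, were lower, at log2 differences of -0.31 ± 0.06 and -0.26 ± 0.05. The call of PLK3 was lost without day 8 library b or day 16 library b, and that of AEN without day 16 library a. GDF15, a secreted factor of the stress response, stood at 1502 and 1508 normalized counts on day 8, 1167 and 1214 on day 16 and 1016 and 928 in Untreated cells (log2 difference 0.34 ± 0.06 (SE), adjusted p = 0.00182).

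**Figure D2:**
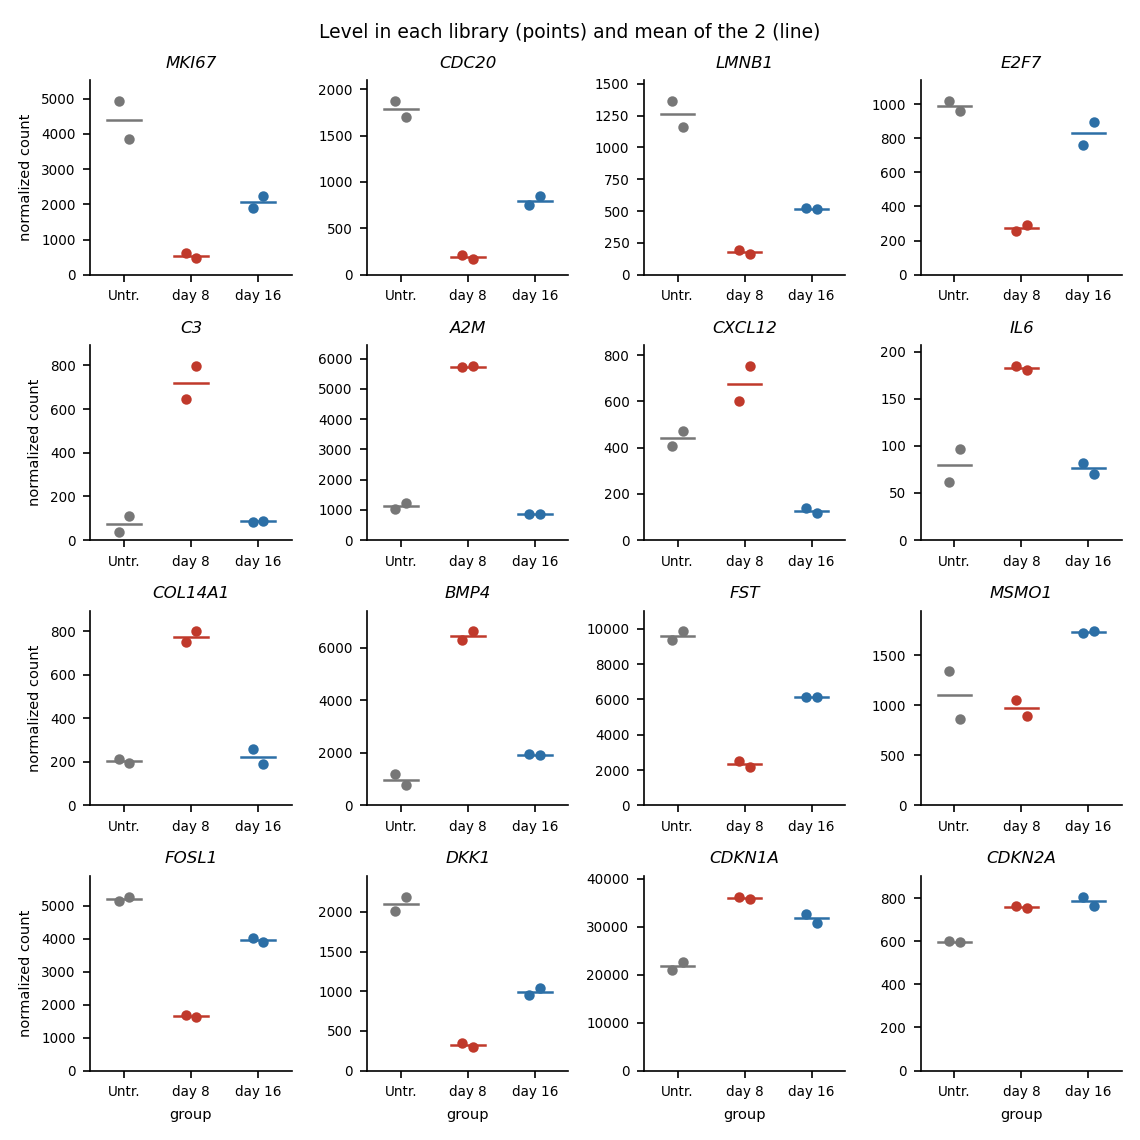
Normalized counts of 16 genes in each of the 6 libraries, points for libraries a and b and a line for the mean of the 2, with each axis starting at 0. MKI67, CDC20, LMNB1, E2F7, FST, FOSL1 and DKK1 were lowest on day 8, C3, A2M, CXCL12, IL6, COL14A1 and BMP4 highest on day 8, and CDKN2A was close on both days.

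Complement was the pathway list with the highest median. The complement system is a set of plasma proteins that tag and lyse foreign cells, and fibroblasts make several of its components. Of 12 tested genes, 10 were higher on day 8 and 1 was lower, with a median log2 difference of 1.10, where 16.9% of all genes were called higher. Where both tables had to reach a mean of 100, the count of higher genes was 6. C3, the central component, stood at 646 and 796 normalized counts on day 8, 83.4 and 88.9 on day 16 and 35.0 and 108 in Untreated cells. Both day 8 libraries lay far above the 4 others, 8.26-fold above day 16 (log2 difference 3.05 ± 0.27 (SE), adjusted p = 5.08e-05). C7, part of the membrane attack complex, stood at 594 and 639 normalized counts on day 8, 136 and 139 on day 16 and 63.3 and 54.1 in Untreated cells (log2 difference 2.16 ± 0.11 (SE), adjusted p = 4.34e-06). C1S, a protease of the first component, stood at 19889.9 and 21472 normalized counts on day 8 and 8838 and 8677 on day 16 (log2 difference 1.24 ± 0.06 (SE), adjusted p = 4.34e-06), while its partner C1R was not called, at 2288 and 131 normalized counts on day 8 and 419 and 235 on day 16, its day 8 libraries being 17.3-fold apart once 1 was added to each. SERPING1, the inhibitor of these proteases, stood at 839 and 916 normalized counts on day 8 and 349 and 339 on day 16 (log2 difference 1.35 ± 0.08 (SE), adjusted p = 7.57e-06). C4A and C4B differed by 2.56 ± 0.45 and 1.49 ± 0.26, and as they are near-identical copies that share reads, their separate values are uncertain. CD59, which protects cells from the attack complex, was the gene that was lower (log2 difference -0.35 ± 0.05 (SE), adjusted p = 0.000662).

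Cytokines and chemokines of the senescence secretome were mostly below the level needed for the test. Of 27 genes, 13 were tested, of which 7 were higher on day 8 and 1 was lower (16.9% and 19.2% of all genes). The count of 7 was 4 without day 16 library b, and also where both tables had to reach a mean of 100. CXCL12, which attracts lymphocytes and stem cells through CXCR4, stood at 603 and 753 normalized counts on day 8, 138 and 117 on day 16 and 408 and 474 in Untreated cells. Day 8 was highest and day 16 lowest, below even the Untreated cells (log2 difference 2.39 ± 0.18 (SE), adjusted p = 2.00e-05). IL6 stood at 185 and 181 normalized counts on day 8, 81.6 and 70.5 on day 16 and 61.9 and 96.7 in Untreated cells (log2 difference 1.26 ± 0.17 (SE), adjusted p = 0.000618), so that day 16 lay within the Untreated range and day 8 above it. CCL2, which attracts monocytes, stood at 2173 and 2068 normalized counts on day 8, 1630.2 and 1503 on day 16 and 638 and 951 in Untreated cells, with a smaller difference (log2 difference 0.44 ± 0.10 (SE), adjusted p = 0.0107). The call of CCL2 was lost with a log2 trend in place of voom. CXCL1 stood at 76.0 and 83.2 normalized counts on day 8, 14.2 and 6.41 on day 16 and 4.04 and 39.3 in Untreated cells (log2 difference 2.98 ± 0.63 (SE), adjusted p = 0.00565), but its Untreated libraries differed by 8.01-fold from each other once 1 was added to each. CSF1 and CXCL10 differed by 0.98 ± 0.06 and 1.07 ± 0.28. CXCL8 did not pass the test, at 82.9 and 94.4 normalized counts on day 8 and 32.8 and 30.2 on day 16 (log2 difference 1.47 ± 0.68 (SE), adjusted p = 0.126). The lower gene was IL11, of the IL-6 family, at 334 and 263 normalized counts on day 8, 696 and 689.8 on day 16 and 899 and 975 in Untreated cells (log2 difference -1.21 ± 0.11 (SE), adjusted p = 4.87e-05). IL1A, IL1B, CXCL2, CXCL3, CCL20, CSF2 and CSF3 were below a mean of 10.

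Genes of NF-kB signalling, which drives many of these cytokines, had 8 of 14 higher on day 8 and 1 lower, where 16.9% of all genes were higher and 19.2% lower. Without day 8 library b 5 were higher. The adhesion molecules VCAM1 and ICAM1, both targets of the pathway, led the list. VCAM1 stood at 6787 and 7407 normalized counts on day 8, 2653 and 2530.0 on day 16 and 943 and 575 in Untreated cells (log2 difference 1.45 ± 0.11 (SE), adjusted p = 2.59e-05). ICAM1 stood at 3322 and 3377 normalized counts on day 8, 1555 and 1504 on day 16 and 1903 and 1447 in Untreated cells (log2 difference 1.13 ± 0.09 (SE), adjusted p = 3.30e-05). The libraries of VCAM1 agreed within both days, but on day 6 they differed by 4.73-fold on the same measure. TNFAIP3 and NFKBIZ, feedback regulators, differed by 1.03 ± 0.11 and 0.87 ± 0.15, and RELA, a subunit, was the lower gene (log2 difference -0.18 ± 0.05 (SE), adjusted p = 0.0164), a call that was lost without any 1 of the 4 libraries.

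Interferon-stimulated genes had 12 of 29 higher on day 8 and none lower at the main scaling (16.9% and 19.2% of all genes), with a median of 0.41, while with library totals 11 were higher and 1 lower. IFITM1, which blocks the entry of viruses, stood at 904 and 815 normalized counts on day 8, 358 and 445 on day 16 and 276 and 238 in Untreated cells (log2 difference 1.11 ± 0.11 (SE), adjusted p = 8.28e-05). XAF1 stood at 98.2 and 68.8 normalized counts on day 8 and 20.4 and 38.5 on day 16 (log2 difference 1.56 ± 0.33 (SE), adjusted p = 0.00587), and IFIT1 differed by 0.84 ± 0.29. Several members were spread between libraries, and MX2, OAS2 and IFI44L, at 1.00, 0.88 and 0.72, did not pass the test. Without day 16 library a 4 were called higher, and without day 8 library a 6. Of 17 genes of MHC class I presentation 10 were tested, of which 5 were higher on day 8 (16.9% of all genes). B2M, the shared light chain, stood at 6707 and 6505 normalized counts on day 8 and 4553 and 4595 on day 16 (log2 difference 0.53 ± 0.05 (SE), adjusted p = 4.52e-05). HLA-C, a heavy chain, differed by 0.85 ± 0.15, but the heavy chain genes resemble each other, so its separate level is uncertain.

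Many matrix genes were higher on day 8. Of 25 tested collagen chains 17 were higher and 3 lower (16.9% and 19.2% of all genes), with a median of 0.38. COL14A1, a collagen bound to fibril surfaces, stood at 749 and 799 normalized counts on day 8, 256 and 191 on day 16 and 211 and 195 in Untreated cells (log2 difference 1.80 ± 0.12 (SE), adjusted p = 1.33e-05). COL4A6 and COL4A5, paired chains of a basement membrane network, differed by 1.41 ± 0.06 and 1.01 ± 0.05, while COL4A1 and COL4A2, the paired chains of the main network, were lower, at log2 differences of -0.17 ± 0.06 and -0.17 ± 0.05. The 3 lower collagen calls were 1 without library a of either day and 0 without library b of either day. COL4A1 stood at 13095 and 12890.4 normalized counts on day 8, 14559.5 and 14756 on day 16 and 26738 and 29826 in Untreated cells, so both days were below Untreated. The 3 chains of type VI collagen, COL6A1, COL6A2 and COL6A3, differed by 0.89 ± 0.12, 0.93 ± 0.11 and 0.85 ± 0.10. COL3A1 stood at 53995 and 54007 normalized counts on day 8, 37268 and 36753 on day 16 and 33170.5 and 26542 in Untreated cells (log2 difference 0.55 ± 0.09 (SE), adjusted p = 0.00125), and COL1A1 did not pass the test (log2 difference 0.19 ± 0.09 (SE), adjusted p = 0.137).

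Of 14 laminin and basement membrane genes 7 were higher on day 8 and none lower (16.9% and 19.2% of all genes). LAMA4, a laminin chain of mesenchymal basement membranes, stood at 16400.4 and 17043 normalized counts on day 8, 7594 and 7684 on day 16 and 7835 and 7665 in Untreated cells (log2 difference 1.13 ± 0.04 (SE), adjusted p = 1.45e-06). NID1, which links laminin to type IV collagen, differed by 0.94 ± 0.07, and LAMB1 and LAMA2 by 0.85 ± 0.05 and 0.91 ± 0.07. Among elastic fibre, proteoglycan and matricellular genes 15 of 27 were higher and 3 lower (16.9% and 19.2% of all genes), the 3 being 1 without any 1 library. FBLN1, fibulin-1, stood at 14552 and 16034 normalized counts on day 8, 5582 and 5178 on day 16 and 9055 and 7140.0 in Untreated cells (log2 difference 1.51 ± 0.10 (SE), adjusted p = 1.21e-05). POSTN, periostin, stood at 1659 and 1701 normalized counts on day 8, 606 and 661 on day 16 and 1437 and 1047 in Untreated cells (log2 difference 1.41 ± 0.12 (SE), adjusted p = 3.72e-05). In both, day 16 was the lowest group and day 8 the highest. FMOD, fibromodulin, differed by 1.33 ± 0.12, and FN1, fibronectin, by 0.49 ± 0.11. CCN3 was the gene of this group with the largest fall, at 504 and 551 normalized counts on day 8, 1124 and 1116 on day 16 and 880.2 and 679 in Untreated cells (log2 difference -1.09 ± 0.10 (SE), adjusted p = 5.16e-05).

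Of 22 matrix proteases and inhibitors 9 were higher on day 8 and 7 lower (16.9% and 19.2% of all genes). The interstitial collagenase MMP1 stood at 929.5 and 908 normalized counts on day 8, 2956 and 2928 on day 16 and 3546 and 5966 in Untreated cells (log2 difference -1.68 ± 0.20 (SE), adjusted p = 0.000261). The stromelysin MMP3 stood at 92.0 and 107 normalized counts on day 8 and 314 and 269 on day 16 (log2 difference -1.56 ± 0.42 (SE), adjusted p = 0.0177). MMP10, another stromelysin, reached the mean of 10 in the day 8 table only through its Untreated level and stood at 2.09 and 1.60 normalized counts on day 8, 17.7 and 23.8 on day 16 and 31.0 and 151 in Untreated cells (log2 difference -3.25 ± 1.13 (SE), adjusted p = 0.0496). SERPINB2, a plasminogen activator inhibitor, was lower as well, at a log2 difference of -1.14 ± 0.14. Higher were PLAT, the tissue plasminogen activator, at 33746 and 34397 normalized counts on day 8, 17888 and 17273 on day 16 and 12960.3 and 14536 in Untreated cells (log2 difference 0.95 ± 0.06 (SE), adjusted p = 8.10e-06), the gelatinase MMP2 with 0.64 ± 0.06, and the inhibitors TIMP1 and TIMP3 with 0.69 ± 0.04 and 0.54 ± 0.05.

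**Figure D3:**
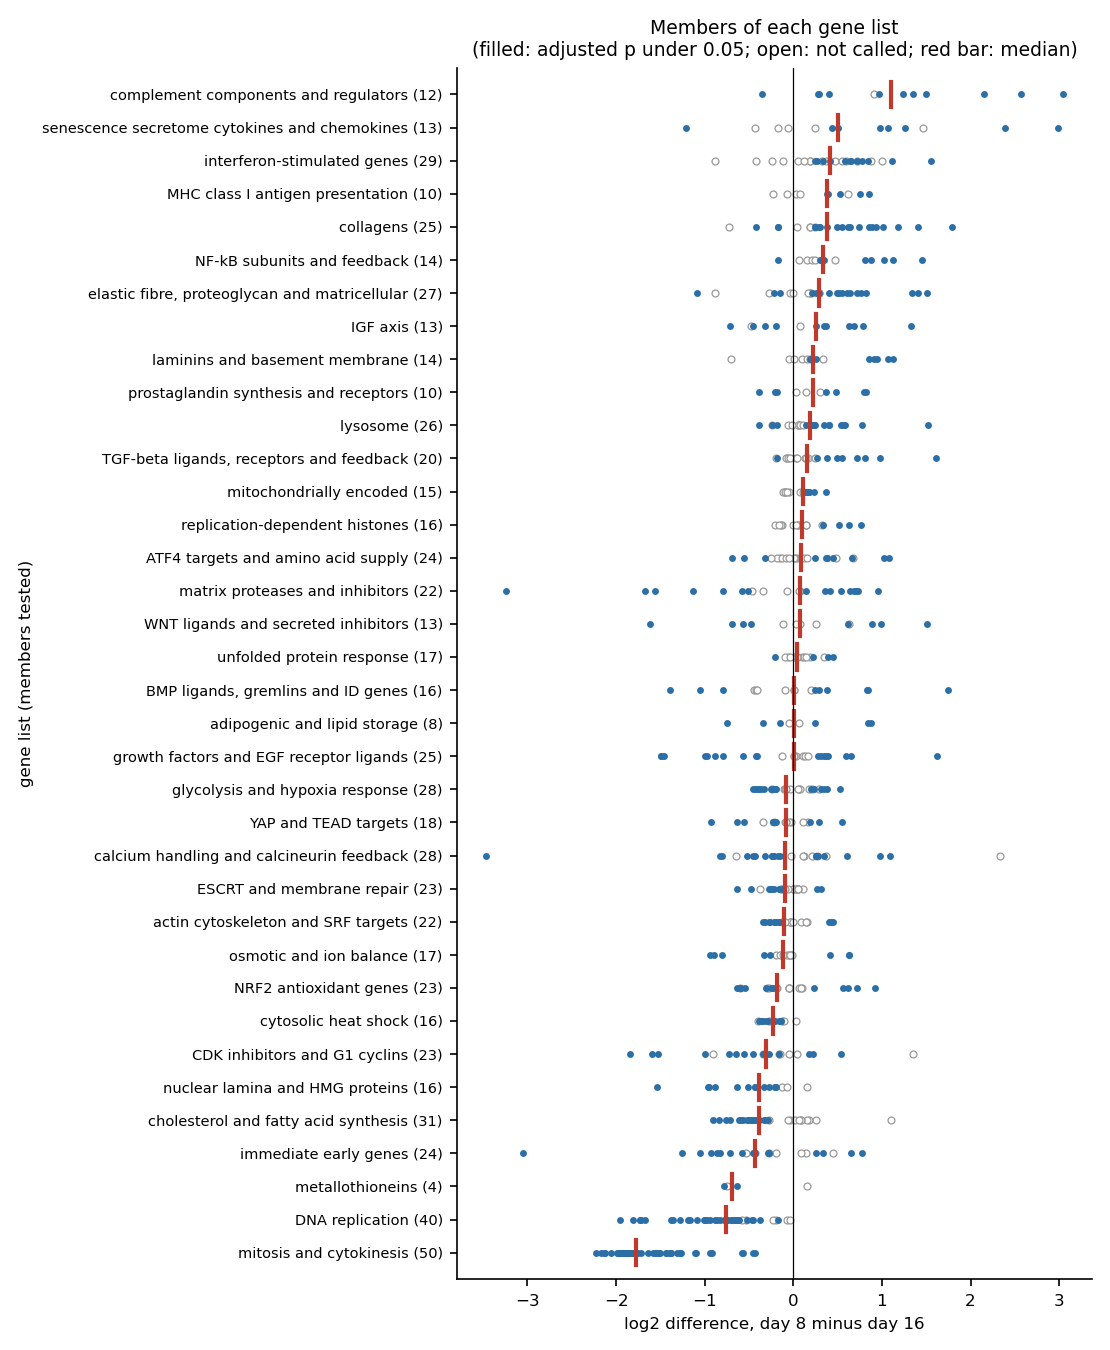
The log2 difference (day 8 minus day 16) of every tested member of the gene lists, filled where the adjusted p was under 0.05, with a red bar at the median and the number tested in parentheses. Among the pathway lists complement stands highest with a median of 1.10, and mitosis lowest with -1.77.

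Signals that act on fibroblasts differed ligand by ligand. Of 20 genes of the TGF-beta pathway 8 were higher on day 8 and 1 lower (16.9% and 19.2% of all genes). LRRC32 (GARP), which holds latent TGF-beta at the cell surface, stood at 189 and 218 normalized counts on day 8, 64.8 and 66.9 on day 16 and 124 and 96.7 in Untreated cells (log2 difference 1.61 ± 0.17 (SE), adjusted p = 0.000155). TGFBI, a matrix protein induced by TGF-beta, stood at 30436 and 32921 normalized counts on day 8, 15817 and 16221 on day 16 and 32928 and 37126 in Untreated cells (log2 difference 0.98 ± 0.06 (SE), adjusted p = 1.23e-05). The ligands TGFB3 and TGFB2 differed by 0.81 ± 0.17 and -0.18 ± 0.05, the call of TGFB2 being lost without any 1 library, and TGFB1 did not pass the test (log2 difference -0.08 ± 0.06 (SE), adjusted p = 0.373). Of 16 genes of the BMP pathway 6 were higher, or 3 without day 16 library a, and 3 were lower (16.9% and 19.2% of all genes). The ligand BMP4 stood at 6272 and 6611 normalized counts on day 8, 1936 and 1903 on day 16 and 1192 and 769 in Untreated cells (log2 difference 1.75 ± 0.11 (SE), adjusted p = 1.09e-05). Its antagonist FST, follistatin, stood at 2521 and 2154 normalized counts on day 8, 6125 and 6153 on day 16 and 9367 and 9854 in Untreated cells (log2 difference -1.40 ± 0.07 (SE), adjusted p = 4.34e-06). The ligand was thus 3.35-fold higher and the antagonist 2.63-fold lower on day 8, with no overlap in either. SMAD1 and SMAD9, which carry the signal, differed by 0.83 ± 0.12 and 0.84 ± 0.18, while ID1, a target gene, was lower (log2 difference -1.05 ± 0.35 (SE), adjusted p = 0.0439). Its Untreated libraries were far apart, at 887 and 2036.

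WNT2, a ligand of lung mesenchyme, was higher on day 8, at 511 and 484 normalized counts on day 8, 176 and 174 on day 16 and 259.7 and 157 in Untreated cells (log2 difference 1.51 ± 0.15 (SE), adjusted p = 0.000103). DKK1, a secreted inhibitor of WNT signalling, was lower, at 344 and 299 normalized counts on day 8, 950.5 and 1035 on day 16 and 2005 and 2189.9 in Untreated cells (log2 difference -1.62 ± 0.10 (SE), adjusted p = 6.83e-06). LEF1, a transcription factor of the pathway, and AXIN2, a target gene, differed by 0.99 ± 0.18 and 0.62 ± 0.21, and TCF7 by -0.69 ± 0.16. Over the 13 tested WNT genes 4 were higher and 4 lower (16.9% and 19.2% of all genes). Of 25 growth factors and receptors 8 were higher and 10 lower (16.9% and 19.2% of all genes). The EGF receptor ligands HBEGF, EREG and AREG were lower, with -1.49 ± 0.13, -0.99 ± 0.09 and -0.97 ± 0.27. HBEGF stood at 137 and 118 normalized counts on day 8, 358 and 361 on day 16 and 444 and 539 in Untreated cells. The fibroblast growth factor FGF5 differed by -1.46 ± 0.05. PDGFD, a ligand of PDGFRB, stood at 614 and 632 normalized counts on day 8, 192 and 212 on day 16 and 214 and 197 in Untreated cells (log2 difference 1.63 ± 0.09 (SE), adjusted p = 5.99e-06), and both PDGF receptors, PDGFRA and PDGFRB, were higher by 0.60 and 0.36 on the log2 scale. Among 13 genes of the IGF axis 7 were higher and 4 lower (16.9% and 19.2% of all genes). IGFBP2 stood at 1997 and 2005 normalized counts on day 8 and 796 and 801 on day 16 (log2 difference 1.33 ± 0.12 (SE), adjusted p = 5.18e-05), IGFBP4 and its protease PAPPA were higher by 0.78 and 0.69, and IGFBP3 was lower (log2 difference -0.71 ± 0.08 (SE), adjusted p = 0.000236).

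Immediate early genes, which respond to growth factors and to calcium within minutes, had 13 of 24 lower and 4 higher on day 8 (19.2% and 16.9% of all genes). FOSL1, an AP-1 subunit, stood at 1679 and 1627 normalized counts on day 8, 4029.9 and 3899 on day 16 and 5146 and 5281 in Untreated cells (log2 difference -1.26 ± 0.05 (SE), adjusted p = 1.37e-06). FOSB stood at 10.5 and 10.4 normalized counts on day 8, 87.0 and 91.6 on day 16 and 31.0 and 22.9 in Untreated cells (log2 difference -3.05 ± 0.29 (SE), adjusted p = 7.43e-05), so that day 16 was the highest group. On day 0 its 2 libraries were 4.91-fold apart with 1 added to each. The phosphatases DUSP1 and DUSP5 and the Ras antagonists SPRY2 and SPRY4, which limit MAP kinase signalling, were lower, at log2 differences of -0.93, -0.72, -0.86 and -0.58. EGR1 and JUNB were higher, with 0.77 ± 0.12 and 0.65 ± 0.06. EGR1 stood at 985 and 1008 normalized counts on day 8, 618 and 549 on day 16 and 1353 and 1016 in Untreated cells, lowest on day 16. Differences were small among actin genes and SRF targets, where 9 of 22 were lower and 3 higher (19.2% and 16.9% of all genes), 3, 0 or 5 were lower without day 8 library b, day 16 library a or day 16 library b, and all values lay between -0.34 for CNN1 and 0.45 for FHL2. Of 18 targets of YAP and TEAD 6 were lower and 3 higher, where 19.2% and 16.9% of all genes were, and the 6 were 3 without day 8 library b and 2 without day 16 library b. ANKRD1 was lower (log2 difference -0.93 ± 0.24 (SE), adjusted p = 0.0155), while CCN1 was slightly higher (log2 difference 0.29 ± 0.04 (SE), adjusted p = 0.00103) and CCN2 did not pass the test (log2 difference 0.17 ± 0.07 (SE), adjusted p = 0.0888).

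Genes for calcium handling were listed because a potassium pulse opens calcium channels. Of 28 tested, 13 were lower on day 8 and 7 higher (19.2% and 16.9% of all genes). The 7 were 2 without day 8 library b, 3 without day 16 library a and 4 without day 16 library b. NFATC2, a transcription factor that calcineurin sends to the nucleus, stood at 9.06 and 4.80 normalized counts on day 8, 75.4 and 80.6 on day 16 and 24.2 and 22.9 in Untreated cells (log2 difference -3.47 ± 0.35 (SE), adjusted p = 0.000113), and day 16 was above all other libraries. Like E2F8 it reached the mean of 10 in the day 8 table only through its Untreated level. NFATC4 had a large but uncalled difference, at 16.0 and 135 normalized counts on day 8 and 5.32 and 12.8 on day 16. The calcineurin regulator RCAN1 was lower, at a log2 difference of -0.46 ± 0.06, and RCAN2 higher, at 0.98 ± 0.09. The calmodulin genes CALM2 and CALM3 were slightly lower, with -0.16 ± 0.05 and -0.22 ± 0.05. SLC8A1, the sodium-calcium exchanger, differed by -0.80 ± 0.10, and CACNA1G, a T-type channel, by 1.09 ± 0.31 at 34.8 and 30.4 normalized counts on day 8 and 12.4 and 18.3 on day 16.

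Of 17 genes of osmotic and ion balance 5 were lower on day 8 and 3 higher, where 19.2% and 16.9% of all genes were, and the 5 were 3 without day 8 library b or day 16 library a. ATP1B1 and ATP1B3, beta subunits of the sodium pump, were lower, at log2 differences of -0.94 ± 0.07 and -0.80 ± 0.05. ATP1B1 stood at 495 and 486 normalized counts on day 8, 949 and 936 on day 16 and 1105 and 1019.5 in Untreated cells. SLC5A3, which imports the osmolyte inositol, stood at 1076 and 1135 normalized counts on day 8, 2014 and 2083 on day 16 and 1567 and 1351 in Untreated cells (log2 difference -0.89 ± 0.07 (SE), adjusted p = 2.42e-05). SLC6A6, which imports taurine, stood at 5602 and 5918 normalized counts on day 8, 3798 and 3659 on day 16 and 2254 and 2259 in Untreated cells (log2 difference 0.63 ± 0.05 (SE), adjusted p = 2.64e-05). KCNJ2, an inward rectifier potassium channel, was higher by 0.62. Among 23 tested genes of ESCRT and membrane repair 8 were lower and 2 higher (19.2% and 16.9% of all genes), and the 8 were 4, 5 or 3 without day 8 library a, day 8 library b or day 16 library a. The annexins ANXA1 and ANXA2 were lower, with -0.64 ± 0.05 and -0.48 ± 0.05, and ANXA1 stood at 8974 and 8630.4 normalized counts on day 8, 13581 and 13789.7 on day 16 and 13205 and 14339 in Untreated cells. CHMP4B, an ESCRT-III subunit, did not pass the test (log2 difference 0.03 ± 0.05 (SE), adjusted p = 0.719).

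Sterol synthesis was the metabolic list with the most uniform difference. Of 31 genes of cholesterol and fatty acid synthesis 20 were lower on day 8 and none higher (19.2% and 16.9% of all genes), with a median of -0.39. MSMO1, a sterol oxidase, stood at 1051 and 889 normalized counts on day 8, 1719.9 and 1736 on day 16 and 1338 and 865 in Untreated cells (log2 difference -0.83 ± 0.14 (SE), adjusted p = 0.00167). Day 16 lay above the 4 other libraries of this fit, while over days 0 to 4 the libraries held 1545 to 2270. HMGCS1, an early enzyme of the pathway, stood at 617 and 582 normalized counts on day 8, 859 and 980.1 on day 16 and 760.4 and 575 in Untreated cells (log2 difference -0.61 ± 0.11 (SE), adjusted p = 0.00201). EBP, of the later steps, differed by -0.90 ± 0.15, and the fatty acid synthase FASN by -0.58 ± 0.11. The regulators SREBF1 and SREBF2 did not pass the test, with 0.18 ± 0.09 and 0.15 ± 0.09. Without day 16 library a 12 genes were called lower.

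Cytosolic heat shock proteins had 10 of 16 lower on day 8 and none higher (19.2% and 16.9% of all genes), by at most 0.38 on the log2 scale among those called, and with 1 library left out 5 (without day 8 library b) or 6 were lower. Of 28 glycolytic and hypoxia genes, 10 were lower and 6 higher (19.2% and 16.9% of all genes), the 10 being 6 without day 16 library a and the 6 being 3 without day 8 library a, day 16 library a or day 16 library b. Examples were the enzymes ENO1 and PKM and the hexokinase HK2 lower, at log2 differences of -0.43, -0.41 and -0.39, and the collagen prolyl hydroxylase P4HA1 and the peptide hormone ADM higher by 0.52 and 0.38. Of 23 antioxidant targets of NRF2, 7 were lower (19.2% of all genes), NQO1 among them (log2 difference -0.63 ± 0.11 (SE), adjusted p = 0.00238), and 5 (3 without day 16 library b, and 16.9% of all genes) were higher, HMOX1 (heme oxygenase) among them (log2 difference 0.72 ± 0.16 (SE), adjusted p = 0.00867). The metallothioneins MT2A and MT1E, which bind zinc and copper, were the 2 lower genes of 4 tested (19.2% of all genes). MT2A stood at 4084 and 3701 normalized counts on day 8, 6935 and 6446 on day 16 and 9277 and 12415 in Untreated cells (log2 difference -0.78 ± 0.12 (SE), adjusted p = 0.000909).

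Of 24 ATF4 targets and genes of amino acid supply 8 were higher on day 8 and 3 lower (16.9% and 19.2% of all genes), the 8 being 4 without day 8 library a or b and 2 without day 16 library a or b. DDIT4, an inhibitor of mTORC1, stood at 872 and 902 normalized counts on day 8, 453 and 419 on day 16 and 618 and 369 in Untreated cells (log2 difference 1.02 ± 0.15 (SE), adjusted p = 0.000717), VLDLR differed by 1.08 ± 0.09, and the arginine importer SLC7A1 was lower (log2 difference -0.70 ± 0.13 (SE), adjusted p = 0.00259). Of 17 genes of the unfolded protein response 3 were higher, near the 16.9% of all genes, and 1 was lower, with HSPA5, the main chaperone of the endoplasmic reticulum, at 0.22 ± 0.06. Of 26 lysosomal genes 15 were higher and 3 lower (16.9% and 19.2% of all genes). The protease CTSS stood at 96.2 and 76.0 normalized counts on day 8 and 31.1 and 28.4 on day 16 (log2 difference 1.52 ± 0.24 (SE), adjusted p = 0.00136), GAA, the acid glucosidase, at 3722 and 3695 normalized counts on day 8, 2166 and 2160.0 on day 16 and 1979.7 and 1647 in Untreated cells (log2 difference 0.78 ± 0.07 (SE), adjusted p = 5.18e-05), and GLB1, the enzyme behind the beta-galactosidase stain of senescent cells, differed by 0.21 ± 0.05. The count of higher lysosomal genes was 8 without day 8 library b, without day 16 library a or without day 16 library b. Of 15 mitochondrially encoded genes 7 were higher on day 8 and none lower at the main scaling (16.9% and 19.2% of all genes), by at most 0.37. With library totals 5 were higher and 2 lower, and without day 8 library a, day 8 library b, day 16 library a or day 16 library b the 7 were 2, 0, 1 or 1.

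Smaller lists gave mixed counts. Of 10 genes of prostaglandin synthesis and reception 4 were higher and 3 lower (16.9% and 19.2% of all genes), with the synthase PTGES at 0.82 ± 0.14, and the 3 were 0 or 1 with 1 library left out. Among 8 adipogenic genes 3 were higher and 3 lower (16.9% and 19.2% of all genes), with CEBPD, an inflammatory C/EBP factor, at 0.87 ± 0.05, and the fatty acid receptor CD36 at 0.84 ± 0.14.

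The largest differences among genes with a mean of at least 100 lay partly outside the lists. ADH1B, an alcohol dehydrogenase, stood at 1077 and 1142 normalized counts on day 8, 43.5 and 34.8 on day 16 and 20.2 and 9.83 in Untreated cells and was 28.1-fold higher on day 8 (log2 difference 4.81 ± 0.21 (SE), adjusted p = 2.05e-06). Its 2 libraries agreed on day 8 and on day 16, but on day 6 they held 53.9 and 0.922 normalized counts. A2M, a protease-binding protein of plasma, stood at 5728 and 5753 normalized counts on day 8, 877 and 854 on day 16 and 1028 and 1223 in Untreated cells (log2 difference 2.73 ± 0.07 (SE), adjusted p = 1.22e-07). ABI3BP, a matrix protein, stood at 204 and 212 normalized counts on day 8, 35.5 and 38.5 on day 16 and 61.9 and 32.8 in Untreated cells (log2 difference 2.48 ± 0.23 (SE), adjusted p = 6.71e-05). GUCY1B1, a subunit of the nitric oxide receptor, stood at 363 and 388 normalized counts on day 8, 76.3 and 58.6 on day 16 and 49.8 and 65.6 in Untreated cells (log2 difference 2.47 ± 0.17 (SE), adjusted p = 1.34e-05). In these genes both day 8 libraries lay above the 4 others. The same held for DEPP1, an autophagy regulator induced by FOXO factors, at 2.42 ± 0.14. It also held for the noncoding RNA MIAT at 2.48 ± 0.23 and the protease ADAMTS15 at 2.31 ± 0.13. MIAT was high on day 0 too, at 459 and 352 normalized counts, against 366 and 369 on day 8. Of the genes with the largest falls, KCNQ5, a voltage-gated potassium channel, stood at 59.2 and 40.8 normalized counts on day 8, 280.4 and 266 on day 16 and 311 and 290.1 in Untreated cells (log2 difference -2.45 ± 0.18 (SE), adjusted p = 2.00e-05). GMNC, a geminin relative known from the making of multiciliated cells, stood at 68.98 and 43.2 normalized counts on day 8, 260.0 and 304 on day 16 and 230.1 and 323 in Untreated cells (log2 difference -2.33 ± 0.25 (SE), adjusted p = 0.000144). In both, day 16 lay within or next to the Untreated range and day 8 far below it.

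Other genes with large differences had levels that jumped between libraries. Over the Untreated cells and the 8 Ca2+-Sen days, 237 of the 14425 genes differed by over 4-fold between the 2 libraries of at least 1 group, with 1 added to each normalized count, and 44 of the 5200 called genes were among them. SQSTM1 (p62), an autophagy receptor, stood at 184 and 202 normalized counts on day 8, 3773 and 3813 on day 16 and 3475 and 3144 in Untreated cells, with log2 difference -4.30 ± 0.10 (SE), adjusted p = 7.95e-08. On day 3 its 2 libraries held 198 and 3076 normalized counts, and on day 0 they held 548 and 7141. With the spread taken over all Ca2+-Sen days its difference did not pass the test. ELP5, of the Elongator complex, stood at 6.27 and 14.4 normalized counts on day 8, 314 and 309.6 on day 16 and 10.8 and 65.6 in Untreated cells (log2 difference -5.01 ± 0.59 (SE), adjusted p = 0.000255), and on day 4 at 193 and 9.62. VAMP7, a vesicle fusion protein, stood at 30.7 and 424 normalized counts on day 8 and 597 and 692 on day 16, and MICA, a ligand of natural killer cells, at 16.0 and 132 normalized counts on day 8 and 248 and 164 on day 16, so their day 8 libraries were themselves far apart. TINF2, of the telomere complex, at -2.88 ± 0.59, GMPR2, a reductase of nucleotides, at 2.49 ± 0.52, CDK7, the CDK-activating kinase, at 2.21 ± 0.37, and EIF5A, a translation factor, at 2.91 ± 0.96 also differed by over 4-fold within a group. FLII, an actin-binding protein, reached 3.77-fold, on day 2, at a difference of -3.51 ± 0.32. U2AF1, a splicing factor, was lower, at a log2 difference of -2.23, and its near-identical copy U2AF1L5 was higher, at 1.13, so reads that match both cannot be assigned. The cause of these jumps was not tested, and the differences of these genes are given as uncertain. Without the 237 genes 5156 of 14188 were called.

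Over the other days of the same treatment the lists took different courses. The median log2 level of the 50 mitotic genes against the Untreated mean was -2.72 and -2.96 in the 2 libraries of day 8, and -1.10 and -1.09 on day 16. It was -1.31 and -1.15 on day 4, and on day 6 the 2 libraries were apart, at -1.37 and -2.48. The 40 replication genes stood at -1.56 and -1.63 on day 8, which overlapped with -1.64 and -1.53 on day 0, and the lower library of day 6 stood at -1.66. The median of the 12 complement genes was 1.54 and 1.29 on day 8, 0.32 and 0.27 on day 16, and between -0.29 and 0.48 in the libraries of the other days. For the collagens the median was 0.19 and 0.12 on day 8, and below 0 in all 14 libraries of the other Ca2+-Sen days. The Untreated libraries, at 0.14 and -0.16, overlapped with day 8, and day 16, at -0.27 and -0.20, lay below both groups. Sterol genes stood at -0.07 and -0.06 on day 8, at 0.31 and 0.33 on day 16, and at 0.17 and -0.19 in Untreated cells. On days 0 to 4 they stood between 0.19 and 0.51, so that day 16 lay within the range of those days. The libraries of day 6 stood at -0.01 and 0.31. Each day was seen in 2 libraries only, so the day and anything particular to the cultures collected on it cannot be told apart.

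**Figure D4:**
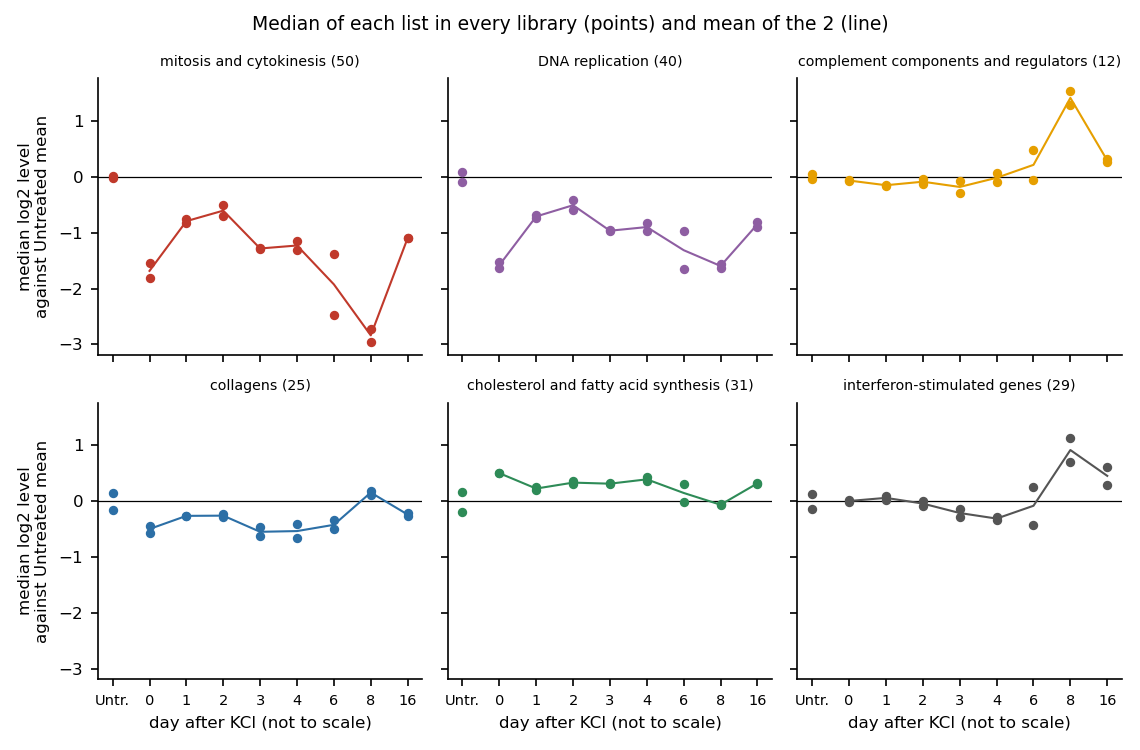
Median log2 level of 6 gene lists against their Untreated mean, in each library (points) of the Untreated cells and of the 8 Ca2+-Sen days, with a line through the mean of the 2 libraries and days spaced evenly, not to scale. The mitotic list is lowest on day 8 at -2.72 and -2.96, the complement list highest at 1.54 and 1.29, and the 2 libraries of day 6 are apart.

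The rule admits a gene by a mean over 4 libraries that includes the Untreated ones, so some members are low on the days compared. The members nearest the limit were HADHAP2, CKLF-CMTM1 and LINC01252, with a lower mean of 10.0 in either table, and the genes just outside it were ISCA1P1, CFAP298-TCP10L and AP001471.1, with 9.99, 9.99 and 9.98.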

How the data were processed

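RNA of WI-38 cells was sequenced as paired-end libraries. The submitters' processing notes name Trim Galore, HISAT2, HTSeq, featureCounts and DESeq2 and the builds GRCh38 and hg38, without versions. The authors deposited, for each treated group, a DESeq2 table of that group against the Untreated group, which holds for each gene the mean normalized count of the 4 libraries (a signal, not a count), and their own fold change, its error, a test statistic and p-values. Only the means were used here. Each mean has 15 digits, and since 10 tables share libraries and every library has whole counts, the counts of 22 libraries could be solved for all 39968 genes above 0 of 59408. For the 14425 genes tested, 2 separate subsets of tables gave the same counts. The step was tested on simulated data. A row without a gene name (0.00223% of the summed mean of the day 8 table) was left out.

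Counts were scaled by median-of-ratios size factors and tested with voom of limma 3.58.1 in R 4.3.3 on the 6 libraries of day 8, day 16 and Untreated, 2 per group, with Benjamini-Hochberg adjustment over all 14425 genes and a threshold of 0.05. A difference is day 8 minus day 16 on the log2 scale, with its standard error (SE). Untreated cells entered the fit for a shared spread. Depth, 15258997 to 37089728 counts a library, sets the precision of low genes, and reads are not known to be independent molecules. Promoter sequences were those of RefSeq (GRCh38.p14), with 1-based coordinates, and 156 of the 158 genes chosen by rule had RefSeq coordinates.

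Genes were chosen by a rule: the 12 largest called differences in each direction among genes with a mean of at least 100 over the 4 day 8 and day 16 libraries and no overlap between the days, 10 senescence markers, and in each of 43 gene lists the 2 called members with the largest difference in each direction. Other list members were named after their values were seen. The genes and lists were chosen with earlier results of these data known. Alternatives were other scalings, filters, pseudocounts, libraries sharing the spread, and each library left out in turn. Some genes of these lists are not reported here.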

Additional observations from a re-analysis of the deposited data

How the results depend on the processing

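No paired analysis was possible because the solved libraries carry no replicate number. Of the 5200 called genes 621 had a log2 difference of at least 1 in size, 297 higher and 324 lower. Leaving out each of the 4 libraries of day 8 and day 16 in turn, where the lone library of a day was assumed to vary like the other groups, gave 2899 to 3486 called genes, 1384 to 1642 higher and 1479 to 1844 lower. In these cases 4 to 12 interferon-stimulated genes and 8 to 11 lysosomal genes were higher, and 12 to 17 sterol and fatty acid genes were lower. Where both tables had to reach a mean of 100, the count of higher complement genes was 6, fewer being tested. Library totals as the scaling gave 5337 calls, 2149 higher and 3188 lower, so that 40.3% of the calls were higher where the median of ratios gave 46.8%. The upper quartile gave 5090 calls, a log2 trend with a pseudocount of 1 or 5 gave 4533 or 4532, day 8 and day 16 alone 5960 and all Ca2+-Sen days together 4829. Of the 158 genes chosen by rule none changed direction, and 42 of the 156 called lost the call in at least 1 alternative. CDKN1A, CDKN1B and PDCD6 lost it with library totals, and CCL2, COL4A1, EIF5A, MICA, VAMP7 and VIM among others with a log2 trend. Of 60 smaller list counts 39 moved by over 1.5 times in at least 1 alternative. The cause of these changes was not tested. E2F8, NFATC2 and MMP10 had means of 8.27, 6.93 and 1.85 normalized counts on day 8, so few reads stand behind those values.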
